A study of Homo sapiens with 10 samples.

Results

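Myeloma cells with reduced AIMP1 mRNA were compared with cells overexpressing AIMP1, in H929, an established human plasma cell myeloma line, and in a second myeloma line labelled OCI. The comparison rests on 5 of the 10 libraries of the series, 3 with knockdown and 2 with overexpression. They were chosen on measured values: of the 4 libraries labelled knockdown, those with AIMP1 mRNA below 50% of the wild-type library of the same line were taken, which were H929 knockdown 2, OCI knockdown 1 and OCI knockdown 2. The overexpression libraries, 1 per line, were taken by their labels. The library labelled H929 knockdown 1 was left out, because its AIMP1 level was 98.2% of wild type, and it is given separately. The other libraries were 1 wild type and 1 treated with AIMP1 protein in each line. Poly(A) RNA was sequenced, and expression was deposited as FPKM, fragments scaled by transcript length and library total. The labels name neither the vector nor the promoter used for overexpression, nor the knockdown reagent, nor whether the cells were clones or pools, nor which OCI line was used. No separate control for a knockdown or an overexpression vector is among the 10 libraries.

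AIMP1 is a scaffold protein that holds together the multi-tRNA synthetase complex, in which several aminoacyl-tRNA synthetases that charge tRNAs for translation are joined. It is also secreted, and outside the cell it acts as a cytokine on monocytes, macrophages and endothelial cells. Myeloma cells are malignant plasma cells, which make and secrete immunoglobulin in large amounts and therefore have a heavy demand for charged tRNA and for protein folding in the endoplasmic reticulum.

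AIMP1 mRNA stood at 3.55 FPKM in H929 knockdown 2, 5.03 FPKM in OCI knockdown 1 and 2.35 FPKM in OCI knockdown 2. It stood at 62.5 FPKM in H929 overexpression and 59.7 FPKM in OCI overexpression. These values are 24.5%, 35.1% and 16.4% of wild type in the knockdown libraries and 431% and 417% of wild type in the overexpression libraries, so wild type, with 14.5 FPKM in H929 and 14.3 FPKM in OCI, lay between in both lines. The contrast therefore spanned a range of 17.6-fold in H929, and of 11.9-fold and 25.5-fold in OCI against knockdown 1 and knockdown 2. AIMP1 chose the libraries, so its own difference is a description, with no test.

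A gene is said to follow AIMP1 when its difference between overexpression and knockdown, on the log2(FPKM + 1) scale, was past 1 in the same direction in all 3 pairs of libraries of the same line. The pairs were H929 overexpression against H929 knockdown 2, and OCI overexpression against OCI knockdown 1 and against OCI knockdown 2, so that both OCI pairs share the overexpression library. Of the 12872 genes whose mean reached 1 FPKM, 44 met this rule (0.342% of the tested genes), 24 of them higher in overexpression (0.186%) and 20 lower (0.155%). The 24 include AIMP1 itself. The counts depend on which libraries enter and on the scale. They were 85 and 62 without OCI knockdown 2, 33 and 55 without OCI knockdown 1, and 58 and 56 with a pseudocount of 0.1 in place of 1. Under this rule, dropping a pair or lowering the pseudocount can only add genes. The 24 and 20 genes were kept in each of these settings. Because these differences chose the genes, they are given as descriptions throughout and no test of them is reported. On this scale a difference of 1 is a change of 2-fold for abundant genes, and a larger ratio for genes near 0 FPKM. In these bulk libraries, fewer cells carrying an mRNA and less of it per cell cannot be told apart.

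Of the 44 genes, 23 are protein-coding, and the 19 of these with a symbol were 11 genes higher and 8 genes lower in overexpression. The higher genes beside AIMP1 were ANXA1, CRYBB1, RBMS3, CCDC102B, LURAP1L, TLCD1, DTNA, PCDH18, RND3 and CD33. The lower genes described here were EGR1, CDA, SPINT2, RAP1GAP2, INPP1, CCN4 and ITGAL. The 21 others were antisense RNAs, long non-coding RNAs, pseudogenes and short RNAs, whose values are uncertain where reads were split with an overlapping gene or a near-identical copy. Just inside the threshold lay CD33, with a smallest pair difference of 1.007, and ITGAL, with -1.03. Just outside lay COG6, MT-ND4L and MECOM, each at 0.98, and CD52 and KLF2, at -0.998 and -0.991.

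The sequence upstream of the transcription start is shown for ANXA1, TLCD1 and CDA, whose mRNA lay in the order of AIMP1, or its reverse, across knockdown, wild type and overexpression in both lines, and for EGR1, a transcription factor among the genes that follow AIMP1. Each window holds the 250 bases before the start in the RefSeq promoter table of GRCh38.p14, read 5′ to 3′ on the strand of the gene. Capitals mark matches to the motifs searched. The windows are chr9:73151615-73151864 on the plus strand for ANXA1, chr17:28726933-28727182 on the minus strand for TLCD1, chr1:20588847-20589096 on the plus strand for CDA and chr5:138465229-138465478 on the plus strand for EGR1.
ANXA1: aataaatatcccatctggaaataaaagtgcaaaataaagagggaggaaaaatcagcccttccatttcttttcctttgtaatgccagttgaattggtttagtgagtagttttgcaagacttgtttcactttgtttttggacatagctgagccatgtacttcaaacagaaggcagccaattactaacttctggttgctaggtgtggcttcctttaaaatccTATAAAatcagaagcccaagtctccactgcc
TLCD1: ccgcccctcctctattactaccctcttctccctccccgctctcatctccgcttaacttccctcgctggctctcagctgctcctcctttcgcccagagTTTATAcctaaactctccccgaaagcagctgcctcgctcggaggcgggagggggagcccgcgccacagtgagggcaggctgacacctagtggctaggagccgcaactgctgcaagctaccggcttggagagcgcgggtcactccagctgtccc
CDA: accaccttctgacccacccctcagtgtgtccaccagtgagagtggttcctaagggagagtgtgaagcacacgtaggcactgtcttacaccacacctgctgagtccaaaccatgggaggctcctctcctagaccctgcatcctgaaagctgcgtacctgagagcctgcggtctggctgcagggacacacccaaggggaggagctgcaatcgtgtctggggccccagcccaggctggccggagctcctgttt
EGR1: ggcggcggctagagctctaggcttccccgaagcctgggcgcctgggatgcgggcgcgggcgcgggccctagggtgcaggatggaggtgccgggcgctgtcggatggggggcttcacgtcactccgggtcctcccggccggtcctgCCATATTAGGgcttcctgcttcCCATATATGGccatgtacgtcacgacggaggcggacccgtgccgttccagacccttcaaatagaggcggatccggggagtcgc

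In the ANXA1 window the capitals are a TATA box, TATAAA, 31 to 26 bases before the start. In TLCD1 the same letters lie on the other strand, 153 to 148 bases before the start. In EGR1 they are a pair of CArG boxes, the element bound by serum response factor, at 105 to 96 and at 83 to 74 bases before the start. The CDA window held no match to any motif searched. Of the genes that follow AIMP1, leaving AIMP1 out, 13 higher and 5 lower genes had an entry in the table. TATAAA, searched on both strands, was found in 4 of the 13 and 1 of the 5, beside 11.1% of all 27305 promoter windows. A CArG box was found in 1 of the 13 and 1 of the 5, beside 1.14% of all windows. The AP-1 site TGACTCA, the cAMP response element TGACGTCA, the EGR site GCGTGGGCG and the E-box CACGTG were found in 0 of either group, beside 4.16%, 1.77%, 0.71% and 6.49% of all windows. These matches describe letters in a window and carry no information on whether a factor was bound.

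ANXA1, which encodes a calcium-dependent phospholipid-binding protein with anti-inflammatory actions, had the largest smallest difference after AIMP1 among the genes higher in overexpression. Its level was 1.14 FPKM in H929 knockdown 2 and 9.40 FPKM in H929 overexpression. In OCI it was 2.34 FPKM in knockdown 1, 0.925 FPKM in knockdown 2 and 14.5 FPKM in overexpression. Both overexpression libraries were therefore above all 3 knockdown libraries, by 8.21-fold in H929 and by 6.22-fold and 15.7-fold in OCI. Among libraries outside the pairs, ANXA1 was 1.77 FPKM in wild type of H929 and 3.08 FPKM in wild type of OCI. In the library labelled H929 knockdown 1 it was 2.11 FPKM. ANXA1 thus lay in the order of AIMP1 in every library of knockdown, wild type and overexpression except that H929 knockdown 1 was above wild type, at 119% of it. The libraries treated with AIMP1 protein, at 4.86 FPKM in H929 and 5.29 FPKM in OCI, were above wild type and below overexpression in both lines, whereas AIMP1 mRNA in them was 140% and 101% of wild type.

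**Figure D1:**
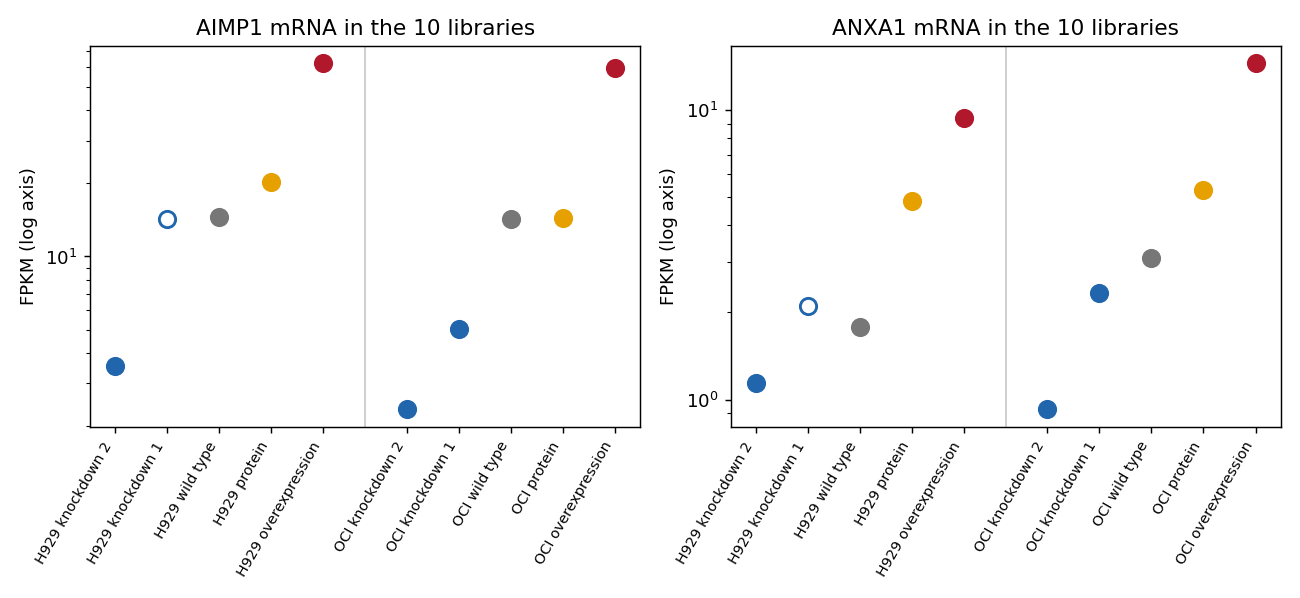
AIMP1 mRNA (left) and ANXA1 mRNA (right) in each of the 10 libraries, in FPKM on a log axis, with 1 point per library and no replicate error. Blue points are knockdown libraries, the open point is the library labelled H929 knockdown 1, grey is wild type, orange is protein treatment and red is overexpression, and ANXA1 is lowest in H929 knockdown 2 and OCI knockdown 2 and highest in the overexpression libraries.

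TLCD1, a plasma membrane protein that affects the lipid composition of membranes, showed the same order at a higher level and with a smaller ratio. It was 6.04 FPKM in H929 knockdown 2, 10.5 FPKM in wild type and 14.1 FPKM in H929 overexpression. In OCI it was 7.51 FPKM in knockdown 2, 11.7 FPKM in knockdown 1, 15.7 FPKM in wild type and 29.4 FPKM in overexpression. The library labelled H929 knockdown 1 was at 9.13 FPKM, between knockdown 2 and wild type. Protein treatment lay at 8.83 FPKM in H929, below wild type, and at 24.3 FPKM in OCI, above it.

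The remaining named genes that were higher in overexpression were mostly expressed at low levels, and wild type did not lie between knockdown and overexpression in both lines. RBMS3, an RNA-binding protein of the RBMS family that recognises single-stranded nucleic acid, was 0.783 FPKM in H929 knockdown 2 and 3.89 FPKM in H929 overexpression. The OCI levels were 0.718 FPKM and 1.81 FPKM in knockdown 1 and knockdown 2 and 6.33 FPKM in overexpression. The overexpression libraries stood above all others, but OCI wild type, at 0.555 FPKM, was below both OCI knockdown libraries. CRYBB1, a beta-crystallin known as a structural protein of the eye lens, was listed at 0 in H929 knockdown 2 and was 1.75 FPKM in H929 overexpression. The OCI knockdown libraries held 6.17 and 6.14 FPKM and OCI overexpression 26.0 FPKM, against 1.75 FPKM in wild type. In H929 the library labelled knockdown 1, at 2.02 FPKM, exceeded overexpression, so the CRYBB1 difference in H929 rests on a single library listed at 0.

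PCDH18, a protocadherin of cell-cell contacts, was 0.457 FPKM in H929 knockdown 2 and 1.96 FPKM in H929 overexpression. OCI had 0.467 and 1.21 FPKM in the knockdown libraries and 7.27 FPKM in overexpression, and OCI wild type, at 0.0795 FPKM, was below them all. DTNA, alpha-dystrobrevin of the dystrophin complex, was 0.437 FPKM in H929 knockdown 2, 2.28 FPKM in H929 overexpression, and 0.127, 0.501 and 2.13 FPKM in OCI knockdown 1, knockdown 2 and overexpression. H929 wild type had as much DTNA as H929 overexpression, at 2.31 FPKM. RND3, an atypical small GTPase that opposes contraction of the actin cytoskeleton, was 1.55 FPKM in H929 knockdown 2 and 4.66 FPKM in H929 overexpression, and 0.742, 1.17 and 3.38 FPKM in OCI knockdown 1, knockdown 2 and overexpression. For RND3, H929 wild type at 4.08 FPKM and H929 knockdown 1 at 4.48 FPKM were close to overexpression, which leaves H929 knockdown 2 as the library that stood apart.

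CCDC102B, a coiled-coil protein, was 0.059 FPKM in H929 knockdown 2 and 1.57 FPKM in H929 overexpression, and 0.259, 0.901 and 3.74 FPKM in OCI knockdown 1, knockdown 2 and overexpression. LURAP1L was 0.822 and 3.76 FPKM in the H929 pair, and 0.422, 0.781 and 2.85 FPKM in the OCI libraries in the same order. For LURAP1L the wild-type libraries, at 0.743 FPKM in H929 and 0.362 FPKM in OCI, were below the knockdown libraries in both lines. CD33, a sialic acid-binding receptor of myeloid cells, was 0.344 FPKM in H929 knockdown 2 and 2.04 FPKM in H929 overexpression, and 9.98, 4.18 and 21.1 FPKM in OCI knockdown 1, knockdown 2 and overexpression. The library labelled H929 knockdown 1 had the highest CD33 of the H929 libraries, at 5.91 FPKM.

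Among the genes lower in overexpression was EGR1, an immediate early zinc finger transcription factor induced by growth factor and MAP kinase signalling. It was 198 FPKM in H929 knockdown 2 and 35.4 FPKM in H929 overexpression, and 21.7, 17.6 and 5.77 FPKM in OCI knockdown 1, knockdown 2 and overexpression. Within each line the overexpression library was therefore the lower, by 5.59-fold in H929 and by 3.76-fold and 3.05-fold in OCI, but the H929 overexpression level was above every OCI knockdown level. Wild type, at 32.0 FPKM in H929 and 17.0 FPKM in OCI, was close to overexpression in H929 and to knockdown 2 in OCI. The library labelled H929 knockdown 1, with AIMP1 at 98.2% of wild type, held 72.8 FPKM of EGR1, 228% of its wild type. EGR1 also differed strongly between the protein-treated libraries, at 7.00 FPKM in H929 and 178 FPKM in OCI.

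CDA, cytidine deaminase of pyrimidine salvage, which inactivates cytidine analogue drugs, was 6.78 FPKM in H929 knockdown 2, with 2.16 FPKM in the wild type and 1.96 FPKM in the overexpression library. The OCI levels were 6.90 FPKM in knockdown 2, 6.48 FPKM in knockdown 1, 4.07 FPKM in wild type and 1.305 FPKM in overexpression. This is the reverse of the AIMP1 order, with H929 knockdown 1 at 2.30 FPKM, near its wild type. The protein-treated libraries, at 1.87 FPKM in H929 and 1.54 FPKM in OCI, were below wild type in both lines.

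SPINT2, a Kunitz-type inhibitor of serine proteases, was also in the reverse order, at 9.34, 3.22 and 1.81 FPKM in H929 knockdown 2, wild type and overexpression. OCI had 8.59 FPKM in knockdown 2, 1.54 FPKM in knockdown 1 and 0.109 FPKM in wild type, and it was listed at 0 in overexpression. The order of SPINT2 between OCI wild type and overexpression thus rests on values near the lower limit. RAP1GAP2, which switches off the small GTPase Rap, was 6.76 FPKM in H929 knockdown 2 and 1.94 FPKM in H929 overexpression, and 6.44, 5.85 and 1.76 FPKM in OCI knockdown 1, knockdown 2 and overexpression. Its wild-type levels of 3.65 FPKM in H929 and 4.52 FPKM in OCI lay between, and its ratios were the most even of the named lower genes, at 3.49-fold in H929 and 3.66-fold and 3.33-fold in OCI.

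INPP1, an inositol polyphosphate phosphatase, was 17.2 FPKM in H929 knockdown 2 and 7.46 FPKM in H929 overexpression, and 10.0, 8.37 and 3.29 FPKM in OCI knockdown 1, knockdown 2 and overexpression. CCN4, a secreted matricellular protein induced by Wnt signalling, was 1.34 FPKM in H929 knockdown 2 and 0.0996 FPKM in H929 overexpression, and 9.14, 7.70 and 2.91 FPKM in OCI knockdown 1, knockdown 2 and overexpression. ITGAL, the alpha chain of the leukocyte integrin that binds ICAM proteins, was 63.7 FPKM in H929 knockdown 2 and 30.7 FPKM in H929 overexpression, and 7.11, 6.73 and 2.17 FPKM in OCI knockdown 1, knockdown 2 and overexpression. For INPP1 and ITGAL wild type lay between in H929, at 9.62 and 51.8 FPKM, and above both knockdown libraries in OCI, at 10.1 and 9.12 FPKM. For CCN4 it lay between in both lines, at 0.927 FPKM in H929 and 6.08 FPKM in OCI.

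CD52, a short lipid-anchored glycoprotein of the lymphocyte surface that is the target of a therapeutic antibody, missed the rule narrowly in 1 pair. It was 32.9 FPKM in H929 knockdown 2 and 9.24 FPKM in H929 overexpression. In OCI it was near the lower limit, at 2.50 FPKM in knockdown 1, 0.997 FPKM in knockdown 2 and listed at 0 in overexpression. Its differences were -1.73, -1.81 and -0.998. Wild type lay between overexpression and knockdown in both lines: H929 wild type had 29.1 FPKM, and OCI wild type had 0.577 FPKM.

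**Figure D2:**
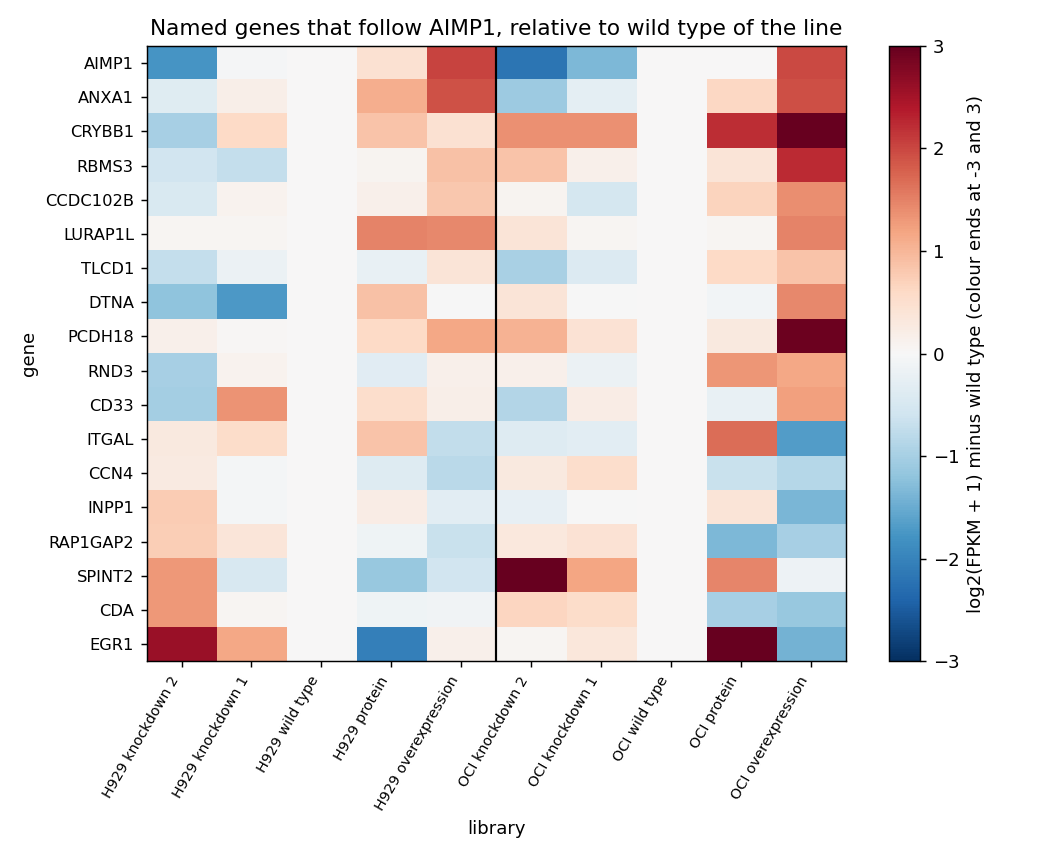
The 18 genes described here that follow AIMP1 (rows) in the 10 libraries (columns), as log2(FPKM + 1) minus the wild-type library of the same line, with colours ending at -3 and 3; the vertical line divides H929 from OCI. AIMP1, ANXA1 and TLCD1 go from blue in knockdown 2 to red in overexpression in both lines, whereas CRYBB1 and PCDH18 are red in all OCI knockdown and overexpression libraries because OCI wild type is lower still.

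Wild type, which did not enter the pair differences, gave a further readout. It did enter the choice of the knockdown libraries, through AIMP1, and the mean that chose the tested genes. For the 43 genes other than AIMP1, wild type lay between knockdown and overexpression in both lines in 12 (27.9%), which were 4 of 23 higher and 8 of 20 lower genes. The same held for 8.64% of the tested genes whose 3 pairs had the same sign, and for 2.19% of all tested genes. The gap between knockdown and overexpression is wider by choice for the genes that follow AIMP1, so a value has more room to fall within it. Further conditions were then added. H929 knockdown 1 had to lie between H929 knockdown 2 and overexpression. OCI knockdown 2, with the lower AIMP1, had to be farther from overexpression than knockdown 1. This left 7 of the 43 genes (16.3%), beside 3.19% of the tested genes with the same sign and 0.808% of all tested genes. The 7 genes were ANXA1 and TLCD1 among the higher and CDA, SPINT2, the non-coding RNA SNHG11 and 2 unnamed antisense genes among the lower genes. SNHG11 falls outside the rule for named genes and was chosen after its values were seen.

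The 2 OCI knockdown libraries gave a comparison of AIMP1 levels within knockdown. Each is a single library, so AIMP1 level cannot be told apart from other differences between the 2 libraries. Their AIMP1 levels were 35.1% and 16.4% of wild type, and knockdown 2 was farther from overexpression than knockdown 1 for 19 of the 43 genes (44.2%). Among all tested genes whose 3 pairs had the same sign it was farther in 45.5%. The library labelled H929 knockdown 1, at wild-type AIMP1, lay between knockdown 2 and overexpression in 27 of 43 genes (62.8%), against 43.0% of the genes with the same sign. Measured against H929 wild type, however, 9 of the 43 genes differed past 1 in that library (20.9%), against 3.83% of all tested genes, though its AIMP1 level did not differ.

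When overexpression was also required to differ past 1 from H929 knockdown 1, so that all 4 libraries labelled knockdown counted, 8 higher and 7 lower genes remained, all of them among the 44. Of the named genes these were AIMP1, ANXA1, RBMS3, LURAP1L, DTNA and PCDH18 in the higher direction and ITGAL, RAP1GAP2 and EGR1 in the lower, among those described here. TLCD1 and CDA, whose H929 knockdown 1 levels of 9.13 and 2.30 FPKM were near wild type, did not remain. Nor did SPINT2, whose H929 knockdown 1 level of 2.02 FPKM was near that of H929 overexpression.

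The libraries treated with AIMP1 protein were outside the pairs as well, though they entered the mean that chose the tested genes. They differed from wild type in the direction of overexpression in both lines for 13 of 23 higher genes and 4 of 20 lower genes. Both shares stand beside 29.2% of the tested genes with the same sign. In OCI, protein treatment was past 1 from wild type in either direction for 13 of the 20 lower genes (65%) and 4 of the 23 higher genes (17.4%). This stands against 20.9% of all tested genes. In H929 it was past 1 for 8 of the 20 lower genes (40%) and 9 of the 23 higher genes (39.1%), against 20% of all tested genes. For EGR1, SPINT2 and ITGAL the difference in OCI was upward, opposite to overexpression, with ITGAL at 31.2 FPKM in OCI protein. In both protein libraries, 1 of the 43 genes was past 1 in the direction of overexpression (2.33%). This stands beside 2.21% of the tested genes with the same sign and 0.559% of all tested genes.

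**Figure D3:**
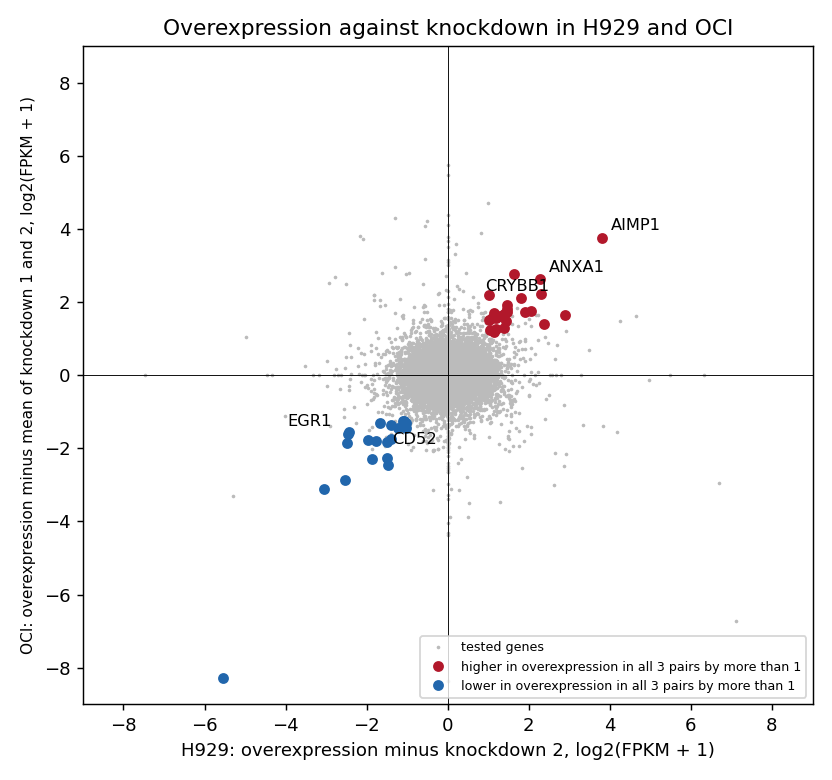
Difference between overexpression and knockdown for each tested gene, on the log2(FPKM + 1) scale, in H929 (x axis, against knockdown 2) and OCI (y axis, against the mean of both knockdown libraries). Grey points are the 12872 tested genes, red and blue points are the 24 higher and 20 lower genes that follow AIMP1, and the grey cloud has no slope, with a Pearson r across genes of 0.07 and -0.05 against the OCI pairs of knockdown 1 and knockdown 2.

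Across all genes, limma with a term for the cell line called 0 of 12872 genes at an adjusted p of 0.05 (0% called), and 320 genes stood under an unadjusted p of 0.05 (2.49%), 177 of them higher (1.38%) and 143 lower (1.11%) in overexpression. At that threshold 5% of the tested genes would be 644. Leaving AIMP1 out, the lowest adjusted p from limma was 0.271. Without OCI knockdown 2 limma called 4 genes, and with median centring of each library it called 2. The fit had 2 residual degrees of freedom and compares 3 libraries with 2. Nothing in the labels says that libraries came from separate cultures, so the p-values measure only the spread between these libraries, which may be technical. A test of whether the difference differed between OCI and H929 called 0 genes as well, with 189 genes (1.47%) under an unadjusted p of 0.05. Its spread came from the OCI knockdown libraries alone.

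The 3 pairs had the same sign in 3265 genes (25.4%), in nearly equal numbers higher (1632, 12.7%) and lower (1633, 12.7%). Single pairs held many more genes past 1. In H929 there were 877 (6.81%), 451 higher (3.5%) and 426 lower (3.31%) in overexpression. Against OCI knockdown 1 there were 1171, 792 higher (6.15%) and 379 lower (2.94%), and against OCI knockdown 2 there were 1215, 535 higher (4.16%) and 680 lower (5.28%). The OCI knockdown libraries differed past 1 from each other in 2023 genes (15.7%), more than the 9.1% and 9.44% by which they differed from overexpression. The median size of a difference was 0.36 in the H929 pair, 0.34 in each OCI pair and 0.45 between the OCI knockdown libraries. Across genes, the H929 differences had a Pearson r of 0.07 with those of OCI against knockdown 1 and of -0.05 with those against knockdown 2, given as a description, since genes are not independent replicates.

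The genes that follow AIMP1 were low and often not protein-coding. Their median level over the 10 libraries was 2.96 FPKM, against 11.2 FPKM over all tested genes, and 30 of 43 had a mean under 5 FPKM (69.8% against 29.7%). Of the 43, 15 were listed at exactly 0 in some library of the 5 (34.9% against 3.60%). Of the 43, 51.2% were protein-coding, against 84.5% of all tested genes. The largest difference of all belonged to SCARNA16, a small RNA of Cajal bodies, named here after its values were seen. It was 46.0, 233 and 416 FPKM in H929 knockdown 2, OCI knockdown 1 and OCI knockdown 2. It was listed at values that round to 0 in both overexpression libraries, but also in H929 wild type and H929 knockdown 1. As these values are not exactly 0, SCARNA16 is not among the 15. Poly(A) RNA was sequenced. Even so, other short RNAs, namely RN7SL1, RN7SL2, RN7SK, RMRP and RPPH1, took 73.8% to 80.7% of the summed FPKM in the 5 libraries. A value of 0 for a short RNA, SCARNA16 included, may be a failed estimate.

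Gene lists were then read for the same contrast, by how many members had the same sign in all 3 pairs. Over all tested genes, 12.7% were higher and 12.7% lower in all 3 pairs. Each list count below stands beside these shares. In each list 0 genes were called by limma. Mitochondrially encoded mRNAs, which encode subunits of the respiratory chain and ATP synthase, were the most uniform. Of 13 members, 12 were higher in overexpression in all 3 pairs, against 12.7% of all tested genes, with medians of 0.48 in H929 and 1.15 and 1.07 in OCI against knockdown 1 and knockdown 2. MT-ND4L, a subunit of complex I, was 1982 FPKM in H929 knockdown 2 and 3913 FPKM in H929 overexpression, and 1244, 1366 and 3621 FPKM in OCI knockdown 1, knockdown 2 and overexpression. MT-ND5, of the same complex, was 573 and 1026 FPKM in the H929 pair and 386, 404 and 847 FPKM in the OCI libraries. MT-ND6, the exception, was 347 and 265 FPKM in the H929 pair and 365, 142 and 237 FPKM in the OCI libraries, with no common sign.

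The fitted median of the list was 0.91, and 0.48 without OCI overexpression. Mitochondrial mRNAs did not lie in the order of AIMP1. Wild type was below knockdown and overexpression in both lines in 12 of the 13 (92.3%, against 12.8% of all tested genes). Wild-type MT-ND4L stood at 1086 FPKM in H929 against 613 FPKM in OCI. Their share of the summed FPKM of protein-coding genes was 5.91% in H929 knockdown 2 and 8.93% in H929 overexpression. The OCI share was 3.49% and 3.81% in knockdown and 6.95% in overexpression, beside 4.13% in H929 wild type and 1.94% in OCI wild type.

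**Figure D4:**
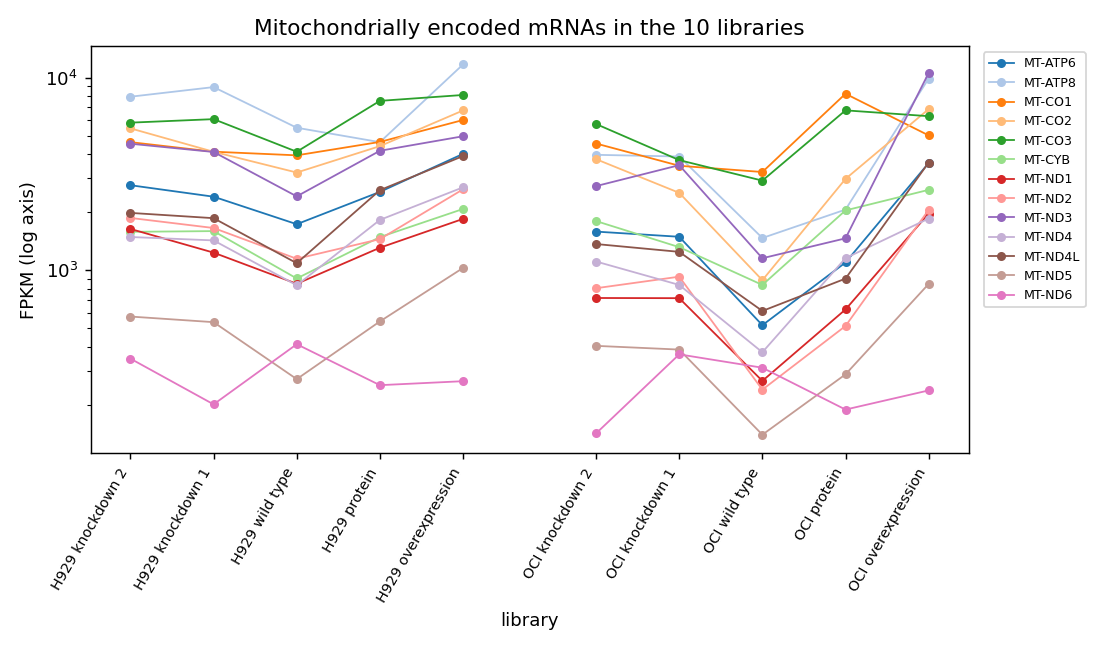
The 13 mitochondrially encoded mRNAs in the 10 libraries, in FPKM on a log axis, with lines joining the libraries of 1 line only to guide the eye. In both lines 12 of 13 are lower in wild type than in the knockdown and overexpression libraries compared, and 12 of 13 are higher in overexpression than in knockdown 2 of both lines.

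Genes of the plasma cell state had 7 of 17 members higher (41.2%) and 2 lower (11.8%) in all 3 pairs. Their medians were 0.32 in H929 and 0.22 and -0.05 in OCI against knockdown 1 and knockdown 2. The transcription factors IRF4, PRDM1 and XBP1 were among the members with no common sign. POU2AF1, a coactivator of octamer-binding factors that is needed for late B cell function, was 11.4 FPKM in H929 knockdown 2 and 21.5 FPKM in H929 overexpression. It was 9.57, 12.5 and 29.4 FPKM in OCI knockdown 1, knockdown 2 and overexpression. Its wild-type levels of 15.8 and 26.1 FPKM lay between in both lines, and its fitted difference was 1.14 ± 0.31 (SE, limma, adjusted p of 1). ELL2, an elongation factor that favours the secreted form of immunoglobulin mRNA, was 33.3 and 57.0 FPKM in the H929 pair and 50.5, 47.6 and 70.4 FPKM in OCI knockdown 1, knockdown 2 and overexpression, again with wild type between, at 44.9 and 51.7 FPKM. JCHAIN, which joins polymeric immunoglobulin, was 1367 and 2560 FPKM in the H929 pair and 1556, 1312 and 1818 FPKM in OCI, where wild type was highest, at 2208 FPKM. TNFRSF17, the receptor BCMA, went the other way, at 41.0 and 29.6 FPKM in H929 and 84.9, 98.4 and 54.8 FPKM in OCI.

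Surface antigens of lymphoid cells were divided, with 5 of 18 higher (27.8%) and 6 lower (33.3%). Beside CD52, CD48 was 81.7 and 61.6 FPKM in the H929 pair and 88.4, 154 and 56.4 FPKM in OCI knockdown 1, knockdown 2 and overexpression. CD63, a tetraspanin of endosomes, was higher in overexpression, at 269 and 337 FPKM in H929 and 231, 280 and 390 FPKM in OCI. SDC1, the plasma cell marker syndecan, was 289 and 180 FPKM in H929 and 259, 268 and 225 FPKM in OCI.

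Of the integrins and adhesion receptors, 3 of 16 were higher and 3 lower (18.8% each, against 12.7% of all tested genes in each direction). The alpha chains ITGAL, given above, and ITGA4 were both lower in overexpression, and ITGA4 was 188 and 127 FPKM in the H929 pair and 87.8, 76.2 and 48.4 FPKM in OCI. ITGB7, the beta chain that pairs with ITGA4, differed in the other direction, at 554 and 1062 FPKM in H929 and 369, 710 and 837 FPKM in OCI. NCAM1, the neural adhesion molecule also known from myeloma cells, was 8.53 and 13.6 FPKM in H929 and 0.944, 1.10 and 3.06 FPKM in OCI. Wild type of NCAM1 was below knockdown 2 in H929, at 6.57 FPKM, and above overexpression in OCI, at 5.04 FPKM. For ITGA4 wild type lay between in both lines, and for ITGB7 in H929 only. The fitted differences of ITGA4 and NCAM1 were -0.67 ± 0.26 and 0.84 ± 0.32 (SE), with an adjusted p of 1 from limma for each.

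Of 7 annexins, ANXA1 and ANXA7 were higher in all 3 pairs, and ANXA7 by little, with differences of 0.08, 0.13 and 0.47. The abundant ANXA2, at 284 and 269 FPKM in H929 and 312, 219 and 308 FPKM in OCI, and the others had no common sign. S100 proteins, small calcium-binding proteins of which several bind annexins, had 4 of 5 members lower, with medians of -0.34 in H929 and -0.36 and -0.32 in OCI. S100A10 was 129 and 57.0 FPKM in H929 but 158, 134 and 123 FPKM in OCI, a small difference in that line. The related RBMS1 was 7.23 and 10.5 FPKM in H929 and 7.63, 6.31 and 7.68 FPKM in OCI, differences of 0.49, 0.01 and 0.25.

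In the multi-tRNA synthetase complex itself, AIMP1 was the 1 of 11 members with the same sign in all 3 pairs. The scaffold AIMP2 was 35.2 and 29.6 FPKM in H929 and 45.8, 26.2 and 38.8 FPKM in OCI knockdown 1, knockdown 2 and overexpression. EEF1E1, the third scaffold subunit, was 13.2 and 12.3 FPKM in H929 and 24.2, 11.8 and 16.9 FPKM in OCI. QARS1, the most abundant synthetase of the complex, was 188 and 177 FPKM in H929 and 182, 283 and 232 FPKM in OCI. The fitted median of the list was -0.02. Of 12 cytosolic synthetases outside the complex, 3 were lower in all pairs and 0 higher, with a median of -0.30. They were YARS1, WARS1 and GARS1, and GARS1 was 79.5 and 77.2 FPKM in H929 and 84.6, 193 and 77.0 FPKM in OCI.

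Targets of the stress factor ATF4, which include amino acid transporters and enzymes of serine synthesis, had 6 of 28 members lower (21.4%) and 0 higher. Their medians were -0.43 in H929, 0.31 in OCI against knockdown 1 and -1.46 in OCI against knockdown 2, so the list's direction in OCI depended on the knockdown library. The fitted median was -0.54, and -0.01 without OCI knockdown 2. SLC7A5, a transporter of large neutral amino acids, was 138 and 62.8 FPKM in H929 and 149, 166 and 113 FPKM in OCI knockdown 1, knockdown 2 and overexpression. CHAC1, a glutathione-degrading enzyme induced by ATF4, shows the split: it was 7.35 and 2.76 FPKM in H929 and 6.14, 122 and 9.68 FPKM in OCI. CHAC1 lies outside the rule for named genes and was chosen after its values were seen. Heat shock genes, ribosome biogenesis genes and proteasome subunits were divided in the same place. Their medians against OCI knockdown 2 were 1.005, 0.70 and 0.60, whereas those of the other 2 pairs lay between -0.16 and -0.49.

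Among immediate early and MAP kinase feedback genes, 3 of 24 were higher (12.5%) and 4 lower (16.7%), against 12.7% of all tested genes in each direction. IER2, like EGR1 an immediate early gene, was 224 and 78.0 FPKM in the H929 pair and 105, 106 and 72.1 FPKM in OCI knockdown 1, knockdown 2 and overexpression. JUN, a subunit of the AP-1 transcription factor, went the other way, at 14.6 and 21.8 FPKM in the H929 pair and 2.65, 24.2 and 32.0 FPKM in OCI. FOS, FOSB, JUNB and IER3, also immediate early genes, had lower values in overexpression in the H929 pair and higher values in both OCI pairs. Some of these differences were close to none, with FOS at -0.04 in H929 and FOSB at 0.08 against OCI knockdown 2. JUN, FOS, FOSB, JUNB and IER3 lie outside the rule for named genes and were chosen after their values were seen. Interferon-stimulated genes had 7 of 17 members higher (41.2%) and 2 lower (11.8%), with medians of 0.30, 0.44 and 0.12. IFI35 was 10.2 and 21.7 FPKM in H929 and 12.2, 16.1 and 28.99 FPKM in OCI. OAS2, an enzyme that senses double-stranded RNA, was lower in overexpression, at 26.7 and 18.9 FPKM in H929 and 27.3, 19.2 and 11.7 FPKM in OCI. In this list wild type was below knockdown and overexpression in both lines in 10 of 17 genes, against 12.8% of all tested genes.

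Of 12 MHC class I and peptide-loading genes, 4 were higher (33.3%) and 0 lower. The list medians were -0.18 for the H929 pair, and 0.48 and 0.10 for OCI against knockdown 1 and knockdown 2. Wild type stood below knockdown and overexpression in both lines in 7 of the 12 genes (58.3%, against 12.8% of all tested genes). B2M, the light chain of class I, was 2904 and 4199 FPKM in the H929 pair and 2290, 3405 and 3935 FPKM in OCI, and HLA-B was 286 and 441 FPKM in H929 and 317, 360 and 443 FPKM in OCI. For both genes wild type held the lowest level of its line, so neither lay in the order of AIMP1. The reads of HLA genes can be split among near-identical copies. Chaperones of the unfolded protein response had 5 of 23 higher (21.7%) and 0 lower, by small amounts, with a fitted median of 0.12. CRELD2 was 41.7 and 61.0 FPKM in H929 and 30.3, 30.4 and 48.5 FPKM in OCI. In the BCL2 family 1 of 13 was higher and 1 lower (7.69% each, against 12.7% of all tested genes in each direction). The lower was BAK1, a pore-forming protein of apoptosis, at 140 and 61.8 FPKM in H929 and 98.8, 71.4 and 54.7 FPKM in OCI.

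**Figure D5:**
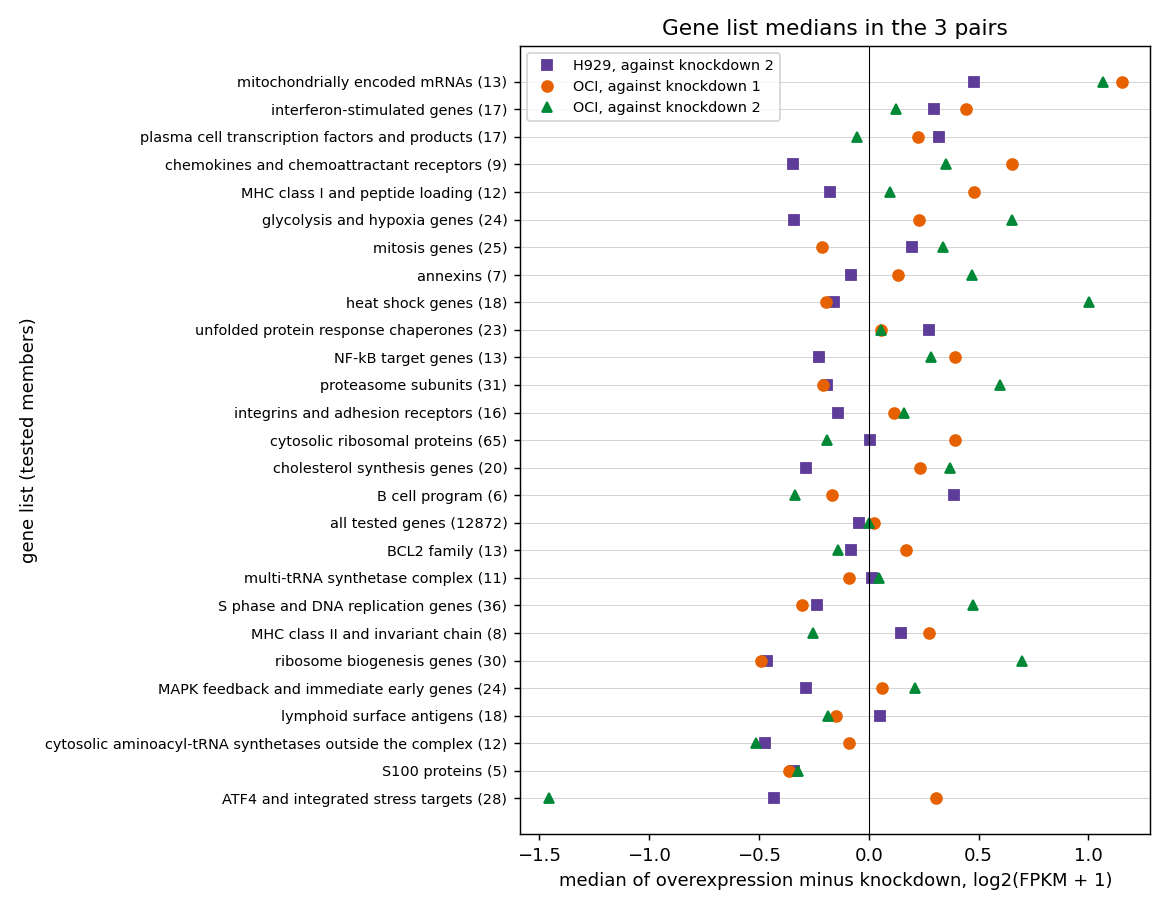
Median difference between overexpression and knockdown, on the log2(FPKM + 1) scale, for each gene list with at least 5 tested members, in H929 (squares) and in OCI against knockdown 1 (circles) and knockdown 2 (triangles); the number of tested members is in brackets. Mitochondrially encoded mRNAs lie to the right and S100 proteins to the left of 0 in all 3 pairs, whereas ATF4 targets and heat shock genes lie far apart in the OCI pairs.

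The 5 libraries expressed the plasma cell program, with all 9 plasma cell markers detected in each and a summed level of 1545 to 2496 FPKM. Depth relative to OCI wild type, estimated from how finely low values are spaced, ran from 27.7% in OCI overexpression to 73.3% in OCI knockdown 1. Markers of other cells moved with the libraries in part. GNLY, a granule protein of cytotoxic lymphocytes, was 7.38 FPKM in H929 knockdown 2 and 1.11 FPKM in H929 overexpression, while CD3D was at 0 in both. The 9 T and NK cell markers summed to 1.84 to 9.29 FPKM in the knockdown and 1.40 to 1.81 FPKM in the overexpression libraries, and the 9 myeloid markers to 1.998 to 6.20 and 6.03 to 7.19 FPKM. CD68, a lysosomal glycoprotein of macrophages and the myeloid marker that passed the filter on low values, was higher in overexpression in all 3 pairs, as CD33 was. It was 0.921 and 5.08 FPKM in the H929 pair and 2.05, 1.94 and 4.06 FPKM in OCI knockdown 1, knockdown 2 and overexpression. The myeloid markers below the filter were divided. CSF1R and AIF1 were higher in overexpression in all 3 pairs and FCER1G was lower in all 3. LYZ, CD14, FCGR3A, TYROBP and MPO had no common sign. COL1A2, COL3A1, DCN, LUM and TYROBP were listed at 0 in 4 of the 5 libraries and at 0.288 to 1.05 FPKM in OCI knockdown 1. The 11 stromal and endothelial markers summed to 856 to 1126 FPKM in knockdown and 928.9 to 943.8 FPKM in overexpression, nearly all of it VIM, and the erythroid markers to at most 1.47 FPKM. The part of other cells in the low genes was not tested.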

How the data were processed

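Per the labels' protocols, poly(A) RNA of 10 libraries was sequenced as paired ends. The authors deposited 1 table of FPKM values for 58229 genes. Per the submitters' processing notes, which give no roles, the tools included Bowtie 0.12.2, StringTie 1.3.0 and HISAT2 2.0. These notes list mm8, a mouse build, although the identifiers are those of human genes in Ensembl, so no coordinates are drawn from the files. Use of strand in counting is not given in these sources. Gene names came from a table that matched 57518 identifiers, and gene types from GENCODE 29. Promoter windows and their coordinates came from RefSeq, build GRCh38.p14. The labels do not explain the suffix of the wild-type columns.

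The scale of analysis was log2(FPKM + 1), over the 12872 genes whose mean across the 10 libraries reached 1 FPKM. limma 3.58.1 in R 4.3.3 fitted cell line and manipulation to the 5 libraries, with moderated variances that follow a trend and two-sided p-values adjusted by Benjamini-Hochberg over all tested genes. A model of group means over the 10 libraries, with 1 residual degree of freedom, tested the difference between OCI and H929 in this contrast. The procedure was tested on simulated data. Absolute depth is not known from FPKM, so no counting intervals are given. No mean ± SD is given, as each group holds 1 or 2 libraries per line.

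The libraries, the genes that follow AIMP1 and the 27 gene lists were chosen with earlier results of these data known. Named genes are AIMP1, ANXA1, RBMS3 and CD52, genes called by limma, up to 15 protein-coding genes with a symbol in each direction among those that follow AIMP1, and from each list up to 3 members with the same sign in all pairs and up to 2 of the highest level. A few of them are not reported here. Alternatives were another pseudocount, other filters and scalings, other models, all 4 libraries labelled knockdown, and leaving out each library.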

Additional observations from a re-analysis of the deposited data

How the results depend on the processing

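No paired analysis was possible because the overexpression groups carry no replicate number, so libraries were matched by cell line alone, which entered the limma fits. The count of genes called by limma was 0 as reported and under 7 alternatives that kept the 5 libraries or added H929 knockdown 1. It was 2 with the filter on the 5 libraries, with a minimum mean of 5 FPKM and with median centring, and 1 with all 10 libraries in the fit. Leaving out each library in turn gave 0 to 4, with 4 without OCI knockdown 2.

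Of the 24 higher and 20 lower genes that follow AIMP1, a pseudocount of 0.1 gave 58 and 56. A minimum mean of 5 FPKM gave 8 and 6, and all 4 libraries labelled knockdown gave 8 and 7. A threshold of 0.5 gave 163 and 128, a threshold of 2 gave 2 and 3, and requiring wild type to lie between in both lines gave 5 and 8. Chosen after seeing the data, leaving out genes listed at exactly 0 in some library of the 5 gave 18 and 11, which keeps SCARNA16. Protein-coding genes alone gave 13 and 10. Leaving out an OCI knockdown library gave 33 to 85 higher and 55 to 62 lower genes, with 85 and 62 without knockdown 2 and 33 and 55 without knockdown 1. No count could be had without H929 knockdown 2 or without either overexpression library, since a line then has no pair. Median centring kept 21 of the 24 higher and 20 of the 20 lower genes, and quantile normalization kept 20 and 18.

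Of 122 named genes, 32 changed the sign of their fitted difference under some of 16 alternatives. The median of mitochondrially encoded mRNAs ranged from 0.48 without OCI overexpression to 1.15 without H929 knockdown 2, and that of ATF4 targets from -0.84 without OCI knockdown 1 to -0.01 without OCI knockdown 2.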

Other observations

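Other gene lists showed small or divided differences, with medians given in the order H929, OCI against knockdown 1 and OCI against knockdown 2. Their counts stand beside the 12.7% of all tested genes that were higher and the 12.7% that were lower in all 3 pairs. Of 36 genes of S phase and DNA replication, 2 were higher and 4 lower in all 3 pairs, with medians of -0.23, -0.30 and 0.48. E2F1, a transcription factor of S phase entry, was 18.7 and 13.9 FPKM in H929 knockdown 2 and overexpression, and 17.6, 17.2 and 13.9 FPKM in OCI knockdown 1, knockdown 2 and overexpression. Of 25 mitosis genes, 5 were higher and 2 lower, with medians of 0.20, -0.21 and 0.34. HMMR, a spindle-associated receptor of hyaluronan, was 8.76 and 35.3 FPKM in H929, and 21.3, 16.8 and 25.2 FPKM in OCI, differences of 1.90, 0.23 and 0.55. Cytosolic ribosomal proteins had 4 of 65 higher and 0 lower, with medians of 0.01, 0.39 and -0.19. Of 30 ribosome biogenesis genes and 31 proteasome subunits, 0 had the same sign in all 3 pairs, against 25.4% of all tested genes.

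Of 24 glycolysis and hypoxia genes, 3 were higher (12.5%) and 0 lower. Among them PDK1, which restrains pyruvate entry into mitochondria, was 9.31 and 18.6 FPKM in H929, and 4.86, 9.41 and 10.8 FPKM in OCI. Of 20 genes of cholesterol synthesis, 3 were higher (15%) and 2 lower (10%), and of 18 heat shock genes, 2 were higher (11.1%) and 0 lower. NF-kB target genes had 2 of 13 higher and 0 lower, MHC class II genes 1 of 8 higher and 0 lower, and the B cell program 1 of 6 higher and 0 lower. Chemokines and their receptors had 2 of 9 higher and 1 lower. CCL3, a chemokine of bone disease in myeloma, differed in opposite directions, at 142 and 77.6 FPKM in H929 and 57.7, 49.4 and 154 FPKM in OCI. The difference between the lines was not past the limma threshold for any gene tested.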
